A study of Mus musculus with 6 samples.

Results

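Slco1a4, Slco1c1, Slco2b1 and Slc22a8 encode membrane carriers that move organic anions and thyroid hormone across the blood-brain barrier. They were taken by gene symbol from the deposited table, which held all 4 of them among its 10989 genes. RNA came from the brains of mice labelled Tie2-cre+; NuTRAP+, with WT in every title, and no age or sex was used here. Cre under the Tie2 promoter switches on NuTRAP, a reporter that tags ribosomes with EGFP and nuclei with mCherry, and all 6 libraries carry both alleles. The Positive fraction (3 libraries) is RNA of dissociated brain cells sorted as EGFP positive, CD31 positive and CD11b negative, and the Input fraction (3 libraries) is RNA of the suspension before the sort. Libraries bear the replicate numbers 1222, 1223 and 1227 in each fraction. The Tie2 promoter is also active in part of the blood lineage, and the Input suspension still contains endothelial cells.

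Brain capillary endothelium is sealed by tight junctions, so many charged and bulky solutes depend on carriers to cross it. Organic anion transporting polypeptides, the Slco family, take up bile acids, steroid conjugates, drugs and iodothyronines without using sodium. Slco1c1 (Oatp1c1) is known for its high affinity for thyroxine, which astrocytes convert to the active hormone triiodothyronine. Slco1a4 (Oatp1a4) carries steroid conjugates, bile acids and many drugs, Slco2b1 (Oatp2b1) carries steroid sulphates, and Slc22a8 (Oat3) belongs to another carrier family and exchanges organic anions for intracellular dicarboxylates. In rodents Slco1c1 is also known from astrocytes and choroid plexus, and Slc22a8 from choroid plexus.

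Summed estimated counts ran from 4772866 to 23525401 in Positive libraries and from 4814966 to 52283556 in Input libraries, with both 1223 libraries at the low end. The lowest count behind a value of the 4 carriers was 657.6, for Slc22a8 in Input 1223. Levels are given as CPM, library-size-scaled counts after TMM scaling (edgeR's correction for library composition), and a call means a Benjamini-Hochberg adjusted p below 0.05 over all 10989 genes in edgeR's quasi-likelihood test. Of the gate genes, Pecam1 (CD31) had a log2 fold change of 2.85 ± 0.13 (SE, n = 3 per fraction), Tek (Tie2) of 2.76 ± 0.18 and Itgam (CD11b) of -2.77 ± 0.31, all called. All 20 genes of a pan-endothelial list were called higher, and all 11 astrocyte, 13 microglial, 8 oligodendrocyte and 9 choroid plexus markers lower. Among all genes 26.1% were called higher and 29.4% lower. Of these markers Gfap, Opalin, Folr1, Kcnj13, Otx2 and Cldn2 entered the deposited table through Input alone, which favours a fall. Fewer cells of a type and less RNA per cell cannot be told apart in these bulk libraries.

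Slco1c1 and Slco1a4 lie in one Slco cluster, with a promoter window of their paralog Slco1b2 (start at 141629268) between them. In the deposited table, on mm10, Slco1c1 spans chromosome 6 from 141524386 to 141570177 on the plus strand and Slco1a4 spans 141805440 to 141856171 on the minus strand, 235 kb further on. Slco2b1 lies on chromosome 7 from 99657804 to 99711340 (minus strand) and Slc22a8 on chromosome 19 from 8591254 to 8611835 (plus strand). RefSeq promoter windows (GRCm38.p6, the same assembly as mm10) were found for all 4 genes, 6 windows in all because Slco2b1 has several start sites. The 250 bases before each RefSeq start were compared between genes on both strands, 12 pairs of windows. Of the 12 pairs, 11 shared at most 10 bases. Among the 4 genes the longest exact run was between Slco1c1 and Slco1a4, at 14 bases in the same orientation. Both windows are shown because this run, in capitals, is what they share.
Slco1c1, chr6:141524104-141524353, plus strand: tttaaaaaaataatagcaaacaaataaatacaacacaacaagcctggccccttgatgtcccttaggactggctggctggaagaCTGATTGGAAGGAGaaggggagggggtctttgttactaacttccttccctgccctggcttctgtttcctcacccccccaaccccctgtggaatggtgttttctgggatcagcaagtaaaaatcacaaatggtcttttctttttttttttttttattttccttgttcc
Slco1a4, chr6:141856221-141856470, minus strand: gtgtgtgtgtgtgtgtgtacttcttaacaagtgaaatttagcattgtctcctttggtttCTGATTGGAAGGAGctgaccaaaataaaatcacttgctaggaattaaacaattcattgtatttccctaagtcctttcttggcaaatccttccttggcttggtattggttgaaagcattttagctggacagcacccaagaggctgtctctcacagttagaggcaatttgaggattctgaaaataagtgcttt
The run starts 167 bases before the RefSeq start of Slco1c1 and 191 bases before that of Slco1a4. It was present in 2 of 32851 mouse promoter windows of this length, these 2 (0.00609%). Within it, GGAA, the core letters of ETS factor sites, overlaps ATTGG, the reverse of a CCAAT box. GGAA occurs on either strand in 93.4% of all windows and ATTGG in 33.8%. The thyroid hormone response half-site AGGTCA, held by 14.0% of windows, was in none of the 6 windows of the 4 genes. A window at an alternative start of the paralog Slco1a5, whose expression was not analysed here, held 11 of the 14 bases and shared a longer run, 20 bases, with another stretch of the Slco1a4 window. The run was singled out after the sequences were compared, and it describes letters, not a bound site. For Slc22a8 the RefSeq start lies inside the gene span of the deposited table.

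All 4 carriers were called higher in Positive than in Input, against 26.1% of all genes called higher. The members were chosen with results of these data known, so nothing is read from their count. Each was higher in Positive in all 3 replicate numbers, and for none did the 2 fractions overlap. The share of all genes that do the same was not counted, so nothing is read from this either. All 4 passed the deposited minimum in both fractions, so none was kept through the fraction in which it was high.

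Slco1a4, the carrier of steroid conjugates and bile acids, had the highest level per length of the 4 in sorted cells. It stood at 4151, 4705 and 4272 CPM in Positive 1222, 1223 and 1227, and at 499.7, 670.9 and 505.0 CPM in Input libraries of the same numbers. The lowest Positive library was thus several times the highest Input library, and the 3 sorted libraries lay close together. The log2 fold change was 2.97 ± 0.17 (SE, 95% interval 2.57 to 3.37, adjusted p = 3.96e-06 by edgeR). Of the 20 pan-endothelial genes, 4 had a larger log2 fold change. Its paralogs Slco1a1, Slco1a5 and Slco1a6 lie in the same cluster and were not analysed here, and how reads shared between them were counted is not given in the sources used here, so its level carries that uncertainty.

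Slc22a8, the dicarboxylate exchanger, showed a change close in size to that of Slco1a4. Positive 1222, 1223 and 1227 held 643.1, 768.3 and 734.4 CPM, and the Input libraries 80.2, 131.5 and 96.0 CPM. Input 1223 was the highest of the Input libraries, as it was for Slco1a4. The log2 fold change was 2.81 ± 0.20 (95% interval 2.35 to 3.27, adjusted p = 8.96e-06).

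Slco1c1, the thyroxine carrier, had 2494, 3127 and 2717 CPM in Positive 1222, 1223 and 1227, while the Input libraries had 472.4, 668.1 and 485.6 CPM. The groups did not overlap, and the 1223 library was the highest in both fractions. Its log2 fold change was 2.36 ± 0.19 (95% interval 1.93 to 2.79, adjusted p = 1.40e-05), lower than that of every one of the 20 pan-endothelial genes, whose values ran from 2.62 to 3.20.

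Slco2b1, the steroid sulphate carrier, had the smallest change of the 4. It was nearly level across the sorted libraries, at 924.3, 901.8 and 913.5 CPM in Positive 1222, 1223 and 1227, a coefficient of variation of 1.24%. The Input libraries held 562.3, 322.8 and 532.4 CPM, so Input 1223 was low where it was high for the other carriers. The coefficient of variation in Input was 27.6%. The log2 fold change was 0.95 ± 0.21 (95% interval 0.48 to 1.42, adjusted p = 0.00441). Within replicate numbers the log2 difference of Positive minus Input was 0.72 (1222), 1.48 (1223) and 0.78 (1227), and the fit without both 1223 libraries gave 0.74, still called.

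**Figure D1:**
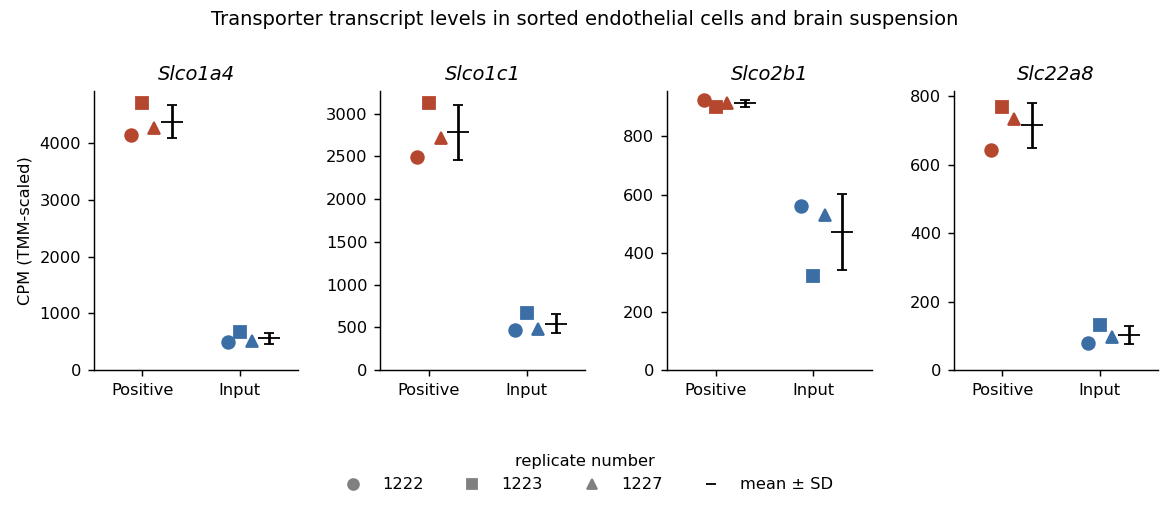
CPM of each carrier (vertical axes, linear, a scale per gene) in the 3 Positive and 3 Input libraries, with symbols for the replicate numbers and the mean ± SD beside them. The fractions are apart for all 4 genes, though the share of all genes for which this holds was not counted. Slco2b1 has the smallest gap, and its Input 1223 value of 322.8 CPM is its lowest.

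Per length of transcript, Slco1a4 and Slco1c1 were the leading carriers of the sorted cells. With all GENCODE exons of a gene joined, the level was 682 ± 45.4 CPM per kb for Slco1a4, 536 ± 61.9 for Slco1c1, 183 ± 16.6 for Slc22a8 and 153 ± 1.90 for Slco2b1 in Positive (SD, n = 3), in that order in each of the 3 libraries. In Input it was 105 ± 21.1 CPM per kb for Slco1c1, 87.1 ± 15.2 for Slco1a4, 79.3 ± 21.9 for Slco2b1 and 26.2 ± 6.72 for Slc22a8. Slc22a8 was the lowest in every Input library, while the other three lay within their spread and, by this length, changed places between libraries. Dividing by the longest protein-coding transcript instead gave 208 ± 18.8 CPM per kb for Slc22a8 and 208 ± 2.58 for Slco2b1 in Positive, so the order of these neighbours depended on the length used. By that length the level in Positive was 1140 ± 76.2 CPM per kb for Slco1a4 and 874 ± 101 for Slco1c1, over 1.5 times the values above, and the order in Input was Slco1c1, Slco1a4, Slco2b1 and Slc22a8 in all 3 libraries.

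Since Input also contains endothelial cells, each carrier was next set against the endothelial genes of its own library, as its log2 CPM minus the mean log2 CPM of the 20 pan-endothelial genes. A gene whose RNA follows the endothelial genes in both fractions has the same value in both. Slco1a4 (1.86 ± 0.09 in Positive and 1.72 ± 0.10 in Input, SD, n = 3) and Slc22a8 (-0.76 ± 0.10 and -0.74 ± 0.20 in the same order) had overlapping fractions. Their differences of Positive minus Input were 0.13 (exact permutation p = 0.2) and -0.02 (exact permutation p = 1.0). Within replicate numbers 1222, 1223 and 1227 the difference was 0.11, 0.13 and 0.16 for Slco1a4, of 1 sign, and 0.06, -0.13 and 0.02 for Slc22a8, of mixed sign. The two-sided exact sign-flip test over these pairs gave p = 0.25 for Slco1a4, the smallest that 3 pairs allow. Slco1c1 was at 1.20 ± 0.15 in Positive and 1.67 ± 0.13 in Input, a difference of -0.48, and the 1.39-fold higher value in Input did not overlap with Positive. Slco2b1 was at -0.40 ± 0.05 in Positive and 1.45 ± 0.60 in Input, a difference of -1.85, or 3.62-fold higher in Input relative to the endothelial genes. For both the two-sided exact permutation p was 0.1, the smallest that 3 against 3 libraries allow, and 0.2 after adjustment over the 4 genes.

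**Figure D2:**
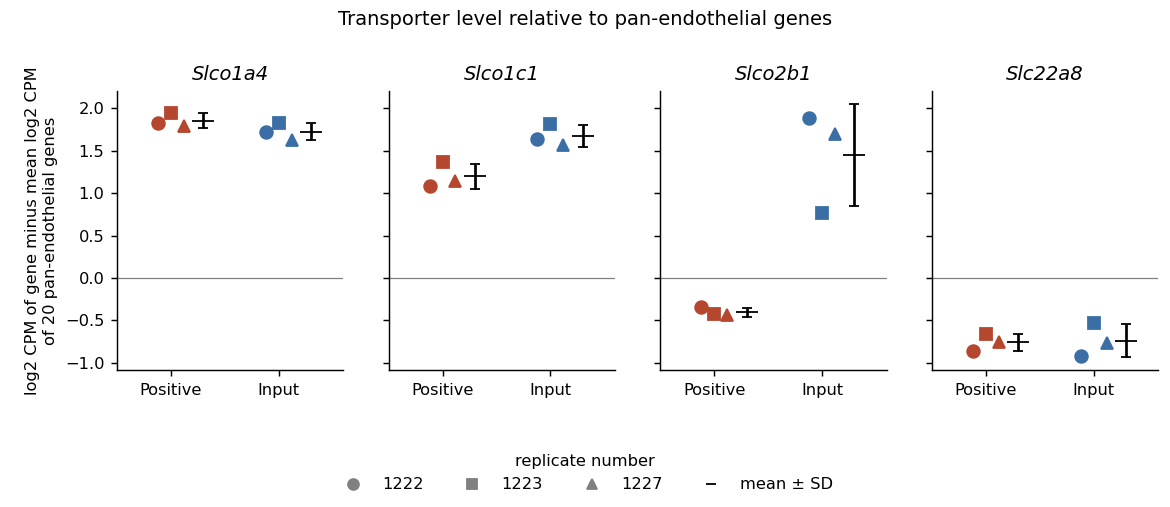
Log2 CPM of each carrier minus the mean log2 CPM of 20 pan-endothelial genes (vertical axis) in the Positive and Input libraries, with symbols for replicate numbers and mean ± SD. Slco1a4 and Slc22a8 overlap between fractions, Slco1c1 is lower in Positive by 0.48, and Slco2b1 is lower in Positive by 1.85 with Input 1223 closest to the sorted libraries.

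The carriers also changed relative to each other. The log2 ratio of Slco1a4 CPM to Slco1c1 CPM was 0.66 ± 0.07 in Positive and 0.05 ± 0.04 in Input (SD, n = 3), a difference of 0.61 in which gene length cancels. The corresponding difference was 1.99 for Slco1a4 over Slco2b1, 1.38 for Slco1c1 over Slco2b1, -0.46 for Slco1c1 over Slc22a8 and -1.84 for Slco2b1 over Slc22a8. In these 5 pairs the fractions did not overlap, with a two-sided exact permutation p of 0.1 each, the smallest possible, and 0.12 adjusted over 6 pairs. For Slco1a4 over Slc22a8 the fractions overlapped, with a difference of 0.15 (exact permutation p = 0.3).

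The level of Slco2b1 in Input was set beside markers of microglia, the brain's resident macrophages, and of other cells. The summed level of 13 microglial markers was 3546, 1978 and 1675 CPM in Positive 1222, 1223 and 1227, and 13430, 7403 and 12970 CPM in Input. Input 1223 thus had the lowest microglial sum of the Input libraries and the lowest Slco2b1. The sum of 11 astrocyte markers was also lowest there, at 9668, 7870 and 11740 CPM in Input 1222, 1223 and 1227. Of these astrocyte markers, Gja1, Atp1b2 and Sox9 were instead lowest in Input 1222. All 13 microglial markers were detected in every library. For 8 perivascular macrophage markers the sum was 3446, 1370 and 659.7 CPM in Positive and 628.2, 601.1 and 564.0 CPM in Input. Of the 8, 7 were called higher and Pf4 did not pass, and Ms4a7 was kept through Positive alone. This sum was uneven among the sorted libraries, among which Slco2b1 stayed between 901.8 and 924.3 CPM. The part of RNA of these cells in the Slco2b1 level of Input was not tested.

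**Figure D3:**
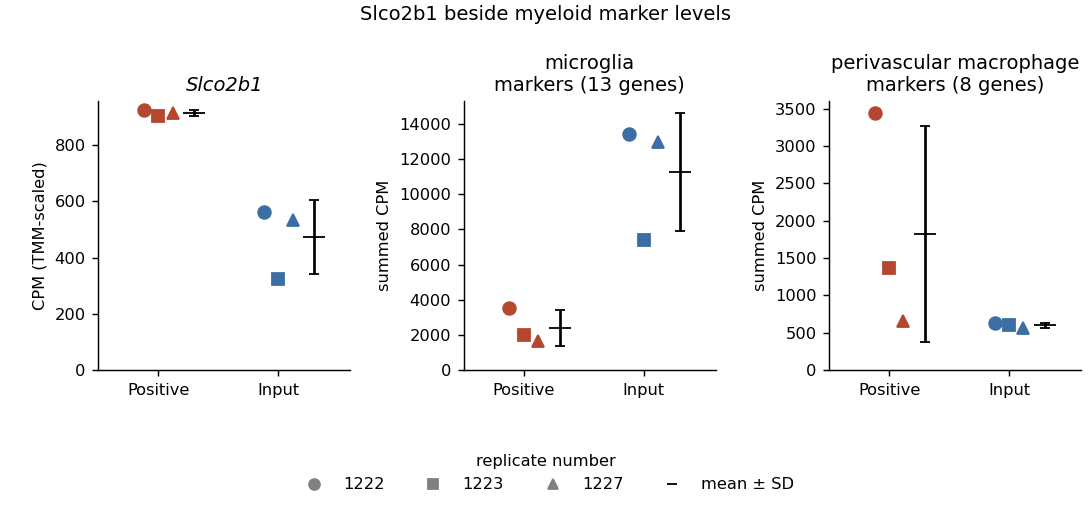
CPM of Slco2b1 and the summed CPM of 13 microglial and 8 perivascular macrophage markers (vertical axes, linear) in the Positive and Input libraries, with symbols for replicate numbers and mean ± SD. Input 1223 is the lowest Input library for Slco2b1 and for the microglial sum, while the macrophage sum varies among Positive libraries and Slco2b1 does not follow it.

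Markers of cells in which Slco1c1 and Slc22a8 are also known were depleted by the sort but not absent. The 11 astrocyte markers summed to 1077, 722.6 and 1130 CPM in Positive 1222, 1223 and 1227, and in Input to the values given above. Number 1223 had the lowest astrocyte sum in both fractions, although Gja1 and Sox9 were lowest in number 1222 in both. The CPM of Slco1c1 was highest in number 1223 in both fractions. The 9 choroid plexus markers summed to 1018, 1646 and 823 CPM in Positive 1222, 1223 and 1227, and to 7782, 11200 and 6395 CPM in Input. Number 1223 thus had the highest choroid plexus sum in both fractions. In Input this order rested mainly on Ttr (2674, 5573 and 2146 CPM in 1222, 1223 and 1227) and Enpp2 (4194, 4842 and 3502 CPM). Folr1, Kcnj13 and Cldn2 were also highest in Input 1223, but Kl, Clic6, Slc4a5 and Otx2 were highest in Input 1222. The values of Slco1c1, Slc22a8 and Slco1a4 relative to the endothelial genes were highest in number 1223 in both fractions. Of 10 tested fibroblast and arachnoid markers, 7 were called lower and 2 (Foxc1 and Dpp4) higher. Of the 7, Col1a1, Dcn and Slc47a1 were kept through Input alone. The summed level of the 10 was 510.2 to 590.2 CPM in Positive and 592.8 to 702.2 CPM in Input. Much of the Positive sum came from Foxc1 (mean 273.0 CPM in Positive and 53.98 in Input) and Dpp4 (70.17 and 13.29 CPM). The near-equal sums thus do not show the fall of the 7. The part of these cells in the levels of Slco1c1 and Slc22a8 was not tested. Of 11 pericyte markers all were called higher, with sums of 1407 to 2240 CPM in Positive and 746.9 to 885.3 CPM in Input. Among them Higd1b was kept through Positive alone.

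Within the Slco and Slc22 families the direction differed from gene to gene. Of 15 Slco genes listed, 5 were tested, and besides the 3 described above these were Slco2a1 and Slco3a1. Slco2a1, a prostaglandin carrier, was at 19.1, 40.1 and 26.4 CPM in Positive 1222, 1223 and 1227 and at 5.99, 7.19 and 4.45 CPM in Input, without overlap, and rose by a log2 fold change of 2.30 ± 0.33 (adjusted p = 0.000413). It was kept in the deposited table through Positive alone, which favours a rise. Slco3a1 fell (log2 fold change -2.48 ± 0.24, adjusted p = 4.44e-05), with 20.3, 11.97 and 21.4 CPM in Positive and 94.4, 125.7 and 87.2 CPM in Input. Of 24 Slc22 genes listed, 6 were tested. Besides Slc22a8, the carnitine carrier gene Slc22a5 rose (log2 fold change 0.61 ± 0.14, adjusted p = 0.00594), but without both 1227 libraries it did not pass (0.68, adjusted p = 0.0569). Slc22a4 (-3.28 ± 0.28), Slc22a17 (-3.33 ± 0.17) and Slc22a23 (-3.35 ± 0.29) fell, and Slc22a4 and Slc22a23 were kept through Input alone, which favours a fall. Slc22a15 did not pass (0.23 ± 0.27, adjusted p = 0.494). In all, 29.4% of the tested genes were called lower.

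**Figure D4:**
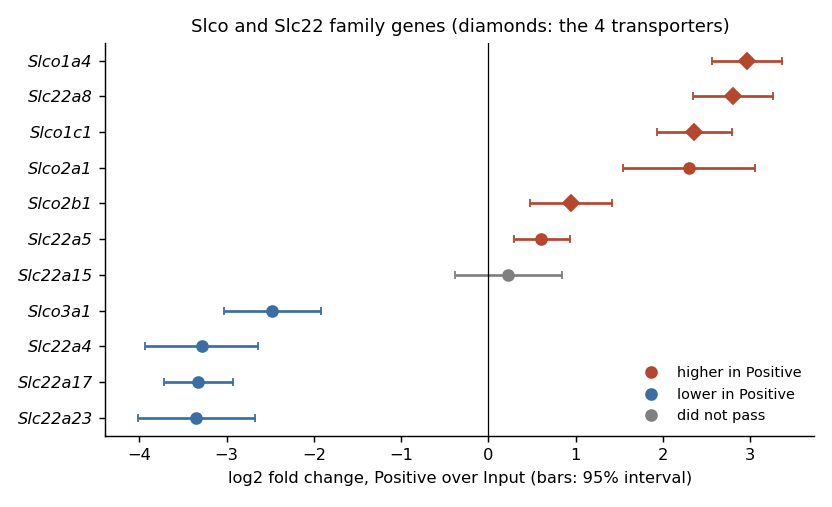
Log2 fold change of Positive over Input (horizontal axis, bars for the 95% interval) of the 11 tested Slco and Slc22 genes, with the 4 carriers as diamonds and colours for the call. Slco1a4, Slc22a8, Slco1c1 and Slco2a1 lie above 2, Slco2b1 at 0.95, and Slco3a1, Slc22a4, Slc22a17 and Slc22a23 below -2.

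Among 22 tested of 26 listed genes of thyroid hormone transport, activation and response, 6 rose and 8 fell, shares near those of all genes (26.1% higher and 29.4% lower), with a median log2 fold change of -0.02 against 0.03 over all genes. The rises included carriers. Slc7a5 (log2 3.00 ± 0.14) and its heavy chain Slc3a2 (1.46 ± 0.14), which form a large neutral amino acid exchanger that also takes iodothyronines, rose, while the related Slc7a8 fell (-1.94 ± 0.32) and Slc16a10 did not pass (-0.75, adjusted p = 0.107) except without Positive 1222 (-1.14).

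Dio2, Crym and Ttr, genes of hormone activation and binding, fell. Dio2, the deiodinase that makes triiodothyronine, averaged 12.9 ± 3.83 CPM in Positive and 54.4 ± 29.9 CPM in Input (log2 -2.08 ± 0.45). The cytosolic hormone-binding protein gene Crym (-2.71 ± 0.50) and Ttr, the thyroxine-binding protein of choroid plexus (-2.73 ± 0.47), fell too. Of the receptors, Thra averaged 235.3 ± 1.64 CPM in Positive and 271 ± 49.5 CPM in Input and did not pass (-0.20, adjusted p = 0.283), and Thrb fell (-1.90 ± 0.48), though it did not pass without both 1222 (-1.59) or both 1227 libraries (-1.62). Of hormone-responsive genes, Klf9 rose (0.61 ± 0.15), and Hr (-3.66 ± 0.27) and Thrsp (-2.45 ± 0.40) fell. Dio2, Crym, Thrb, Hr and Thrsp were kept in the deposited table through Input alone, which favours a fall. The coregulator genes Ncor1 (0.63 ± 0.23, adjusted p = 0.0474) and Thrap3 (0.44 ± 0.12) rose. Ncor1 did not pass without Positive 1222 (0.41), Positive 1223 (0.73), Input 1223 (0.49), Input 1227 (0.55) or both 1223 libraries (0.59). Without both 1227 libraries Ncor1 (0.65), Klf9 (0.58) and Thrap3 (0.44) did not pass, which left 3 genes called higher.

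**Figure D5:**
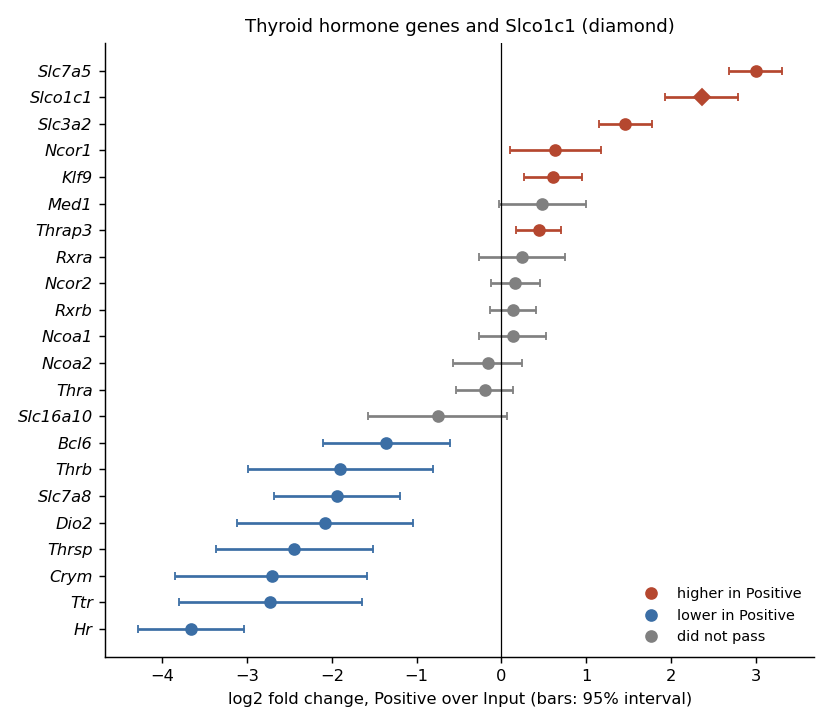
Log2 fold change of Positive over Input (horizontal axis, bars for the 95% interval) of thyroid hormone genes and of Slco1c1 (diamond), with colours for the call. The carriers Slc7a5, Slco1c1 and Slc3a2 are at the top, and Hr, Ttr, Crym, Thrsp and Dio2 are below -2.

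Several listed ABC efflux pumps also rose. Of 9 tested genes 5 were called higher and 2 lower, against 26.1% higher and 29.4% lower among all genes. The median log2 fold change was 0.73, the value of Abcb1b. Abcb1b and Abcc6, among the 5, were kept through Positive alone, which favours a rise. Abcb1a (P-glycoprotein, 3501 ± 27.3 CPM in Positive and 484 ± 37.2 CPM in Input), Abcg2 (650.2 ± 23.1 and 108.4 ± 13.1 CPM in the same order) and Abcc4 (526.8 ± 63.4 and 85.4 ± 8.18 CPM) rose by log2 2.86 ± 0.14, 2.59 ± 0.14 and 2.62 ± 0.15. Abcc5 did not pass (0.52 ± 0.23, adjusted p = 0.0869), although it did without Positive 1223 (0.67) or Input 1222 (0.77) and with the replicate number as a block (0.54). Abcc3 fell (-1.64 ± 0.35). Abcc10, kept through Input alone, fell (-1.05 ± 0.33). It did not pass without Positive 1227, Input 1222, Input 1223 or Input 1227 (-1.14 to -0.94), nor without both 1222 (-1.34) or both 1227 libraries (-1.09), where 1 gene was called lower.

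Enzymes and adaptors that handle conjugates and steroids were mixed, with 4 of 13 tested genes higher and 6 lower (median log2 fold change -0.47), against 26.1% higher and 29.4% lower among all genes. Slc9a3r2, a scaffold that binds transporter tails, stood at 1564 ± 60.5 CPM in Positive and 257.4 ± 26.8 CPM in Input (log2 2.60 ± 0.14), and the epoxide hydrolase gene Ephx1 (1.52 ± 0.14), the glutathione transferase gene Gsta4 (1.46 ± 0.17) and the aryl hydrocarbon receptor gene Ahr (1.69 ± 0.27) rose. Ahr was kept through Positive alone. Of the genes called lower, Ephx2 and Hsd11b1 were kept through Input alone, which favours a fall. Ugt8a, which makes myelin galactolipids, fell (-4.65 ± 0.30), and Gstm1 did not pass (-0.47 ± 0.27, adjusted p = 0.180) except without Input 1223 (-0.70). Prostanoids are substrates of Slco2a1 and Slc22a8. Of 14 tested genes of prostanoid handling, 5 rose, with Slco2a1 itself among them, and 5 fell (median -0.13). Among all genes 26.1% were called higher and 29.4% lower. Synthesis genes were on both sides. The prostacyclin synthase gene Ptgis (1.82 ± 0.16), the cyclooxygenase gene Ptgs2 (1.48 ± 0.43), the prostaglandin E synthase gene Ptges (1.39 ± 0.28) and the receptor gene Ptger1 (1.45 ± 0.19) rose, with Ptges kept through Positive alone. Ptgs2 did not pass without Positive 1222 (0.92), Input 1227 (1.15) or both 1222 libraries (1.12). The synthases Ptgds (-4.09 ± 0.24), Ptges2 (-0.97 ± 0.18) and Tbxas1 (-1.46 ± 0.39), the other cyclooxygenase gene Ptgs1 (-2.44 ± 0.26) and the reductase gene Cbr1 (-0.49 ± 0.15) fell. Ptges3 did not pass (-0.02 ± 0.16, adjusted p = 0.922). Cbr1 did not pass without Positive 1222, Positive 1227, Input 1222, Input 1227 (-0.50 to -0.41) or both 1222 libraries (-0.43). Without both 1227 libraries Tbxas1 (-1.05) and Cbr1 (-0.43) did not pass, which left 3 called lower.

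The genes of nearest pattern were sought among 8224 genes with at least 50 raw counts in every library, by the root mean square difference of log2 CPM profiles over the 6 libraries, each centred on its mean. For Slco1a4 these were Hspa12b (0.0518), Foxq1 (0.0534) and Cd93 (0.0636), and for Slc22a8 they were Esam (0.0439), Rasip1 (0.0701) and Arhgef15 (0.0724). Rhoj (0.0622), Nxpe4 (0.0786) and Parvb (0.0853) lay nearest to Slco1c1. For Slco2b1 the nearest were Nxn (0.0393), Rnf168 (0.0541) and Zfp319 (0.0696), all of which were also lowest in Input 1223. Among the carriers themselves, Slco1a4 and Slc22a8 were closest (0.126), and Slco2b1 lay 0.811 from Slco1c1, 1.03 from Slc22a8 and 1.07 from Slco1a4. These distances mainly record the difference between 2 fractions and share the same libraries.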

How the data were processed

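Per the labels, RNA was sequenced with a directional library kit. The authors deposited 1 table with estimated counts per gene (the raw columns, of which 95.3% of values are not whole) and log2 normalised values per library. A gene entered the table, per the file headers, if every library of at least 1 fraction reached a raw value of 50. Per the submitters' processing notes the build was mm10 and a tool was DESeq. Aligner, counter and use of strand: not given in the sources used here.

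Estimated counts were rounded and tested with edgeR 4.0.16 in R 4.3.3, with TMM scaling, edgeR's low-count filter at 10 (0 genes removed), a quasi-likelihood fit of all 10989 genes with fraction as the only term, Benjamini-Hochberg adjustment and a threshold of 0.05. Fold changes use a prior count of 2, and the test was tested on simulated data. Exact permutation tests used scipy 1.17.1. Alternatives were DESeq2 1.42.0, limma 3.58.1 on the log2 values, no TMM, no filter, left-out libraries and a replicate block. Positive and Input libraries of 1 number deviated together (correlations 0.45, 0.23 and 0.30), so the numbers were taken to pair the libraries. The pairing was used in differences within replicate numbers, the sign-flip tests and the replicate block. The main edgeR fit and the exact permutation tests did not use it. The series design calls the replicates biological but no label ties a number to an animal, and p-values measure the spread between these libraries, which may be technical. Exon lengths came from GENCODE M21, and the level per longest transcript was added after seeing the data.

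The members and lists were chosen with earlier results of these data known. Of 229 listed genes 176 matched by symbol, and the others were not analysed here. Named genes are the carriers, gate and driver genes, tested Slco and Slc22 genes, the 4 highest of each other pathway list by mean CPM with members called against its main direction, and the 3 nearest in pattern. A tested gene that this rule selects is counted in its list but not reported here by name. Further list members given in the text were picked with their values in view.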

Additional observations from a re-analysis of the deposited data

How the results depend on the processing

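All 4 carriers kept their direction and their call under all 14 alternatives run, with log2 fold changes of 2.82 to 3.12 (Slco1a4), 2.21 to 2.54 (Slco1c1), 2.66 to 3.02 (Slc22a8) and 0.74 to 1.09 (Slco2b1). Leaving out the filter moved no value, since it had removed 0 genes. With the replicate number as a block Slco2b1 had 0.99, Slco1a4 2.98, Slco1c1 2.37 and Slc22a8 2.83, and the block changed no call of a carrier. Relative to the pan-endothelial genes, Slco1c1 stayed between -0.56 and -0.40 and Slco2b1 between -2.20 and -1.64, while Slc22a8, at -0.02, changed sign without Positive 1222 (0.03) and without Input 1223 (0.09), and its values over left-out libraries ran from -0.11 to 0.09. A sign-flip test within replicate numbers could not reach a p below 0.25 there. Of 58 other genes of the text that were followed through the alternatives, 45 kept their call in every one. Ptges3 changed sign without passing, at 0.07 by limma on the deposited log2 values, and between -0.12 and 0.15 over left-out libraries (0.01 without Positive 1227, 0.15 without Input 1223 and 0.11 without both 1223 libraries). Ncor1 (0.47) and Thrap3 (0.28) lost their calls without TMM, which moved the median of all genes to -0.13, against 0.03, and Ncor1 (0.72, adjusted p = 0.062) and Cbr1 (-0.40, adjusted p = 0.0998) by limma on the deposited values. Over left-out libraries the ABC genes called lower numbered 1 to 2, the thyroid hormone genes called higher 3 to 7, the prostanoid genes called lower 3 to 6, the Slc22 genes called higher 1 to 2 and all genes called higher 1741 to 2755, against 2870 with every library. The lowest count came without both 1227 libraries in each case, and for the ABC genes also in 5 other settings. The cause was not tested. Depth is lowest in the 1223 libraries, which gives their low genes more counting error.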
